A study of Mus musculus with 9 samples.

Results

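The 33 genes described here code for the vacuolar proton pump of the osteoclast and for the proteins that feed it with acid, balance its charge and carry it to the membrane. They were listed by name from their known roles, with earlier results of these data known, and all 33 were found among the 54532 genes of the count table. By role they are 9 genes of the membrane sector V0, 8 of the cytosolic sector V1, 2 of accessory subunits, 5 of acid supply and ion exchange, 7 of vesicle trafficking, the creatine kinase gene Ckb and the phosphatase gene Acp5. RNA was sequenced from bulk cultures of osteoclasts grown from mouse bone marrow, in 3 groups of 3 libraries. KO_4OI is the group from Acod1-deficient mice whose cells received 50 µM 4-octyl-itaconate on day 1, KO_CTR comes from Acod1-deficient mice without the compound, and WT_CTR comes from wild-type mice without it. After a night in 5 ng/ml M-CSF, every culture was grown with the cytokines RANKL (10 ng/ml) and M-CSF (20 ng/ml) and harvested on day 3. No wild-type culture with the compound was part of the groups, so its effect was measured in the Acod1-deficient background alone. The labels give neither the strain, age or sex of the mice nor whether the libraries of a group came from separate animals, and p-values therefore rest on a spread that may be technical. They describe the controls as unstimulated and mention no vehicle.

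Osteoclasts dissolve bone mineral by pumping protons into the sealed space under the cell. Carbonic anhydrase II makes the protons from carbon dioxide and water, the V-ATPase of the ruffled border pumps them out at the cost of ATP, the chloride/proton exchanger ClC-7 carries the balancing chloride, and the basolateral exchanger AE2 removes the bicarbonate left behind. The pump reaches the ruffled border when lysosome-related vesicles fuse with it, and inherited loss of TCIRG1, CLCN7, OSTM1, CA2, SNX10 or PLEKHM1 causes osteopetrosis in humans. Itaconate is the metabolite made by the enzyme that Acod1 encodes, and 4-octyl-itaconate is an ester of it that enters cells.

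Depth ranged from 24830149 to 35143629 counted reads per library, and 31 of the 33 genes were tested among 14264 genes. The lowest read count of any of these 31 in any library was 268. Atp6v0e2 (0 to 12 reads per library) and Syt7 (0 to 6 reads) were too low to test. Acod1 itself had 135, 168 and 131 reads in KO_4OI, 60, 86 and 47 in KO_CTR and 24, 27 and 55 in WT_CTR. Scaled for depth these are 4.95, 6.27 and 4.96 CPM in KO_4OI, 1.98, 3.60 and 1.70 CPM in KO_CTR and 0.927, 0.889 and 1.57 CPM in WT_CTR. Every library labelled KO thus lay above every WT_CTR library at Acod1, the opposite of the label (KO_CTR against WT_CTR, log2 fold change 1.08 ± 0.32 SE, adjusted p = 0.127). A count for the whole gene does not tell deleted from remaining exons, and groups are named here by their labels. Xist reads were present in KO_4OI replicate 3 and WT_CTR replicate 2 and in no other library, so libraries within these groups differed at this gene. The presence of Xist reads served as the sex covariate in an alternative setting. The first principal component set the 3 KO_4OI libraries apart from the 6 others, and on the second KO_CTR replicate 2 lay apart from the other KO_CTR libraries. Of 11 osteoclast markers, 11 were expressed in every group and 11 fell in KO_4OI relative to KO_CTR. Of all genes 14.2% fell and 13% rose in that comparison. The summed level of the osteoclast markers was 9144 to 11648 CPM per library in KO_4OI, 27943 to 34465 CPM in KO_CTR and 24859 to 26205 CPM in WT_CTR. That list includes Acp5 and Atp6v0d2. Of 7 macrophage and monocyte markers 1 rose and 1 fell relative to KO_CTR, where 13% and 14.2% of all genes did. Summed levels of the 7 were 2339.6 to 2715 CPM in KO_4OI, 2512 to 3398 CPM in KO_CTR and 1862 to 2216 CPM in WT_CTR. Adgre1 rose, with means of 629 CPM in KO_4OI and 336 CPM in KO_CTR. Csf1r, which held most of the sums, fell, with means of 1393 and 2027 CPM in the same order. Relative to WT_CTR 4 of the 7 rose in KO_4OI and 0 fell, where 12.1% and 12.2% of all genes did. Relative to KO_CTR, dendritic cell markers fell in 5 of 6 cases and rose in 1, beside the same 14.2% and 13% of all genes. Their sums were 287 to 322 CPM in KO_4OI, 843 to 1469 CPM in KO_CTR and 413 to 744 CPM in WT_CTR. The part of these marker changes in the results below was not tested, and in bulk RNA fewer cells of a type cannot be told apart from less RNA per cell.

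The acid secretion genes were lower in KO_4OI than in KO_CTR across most roles. Together the 33 genes took 1.48%, 1.43% and 1.48% of all reads in the KO_4OI libraries, against 3.02%, 3.25% and 3.12% in KO_CTR and 2.70%, 2.77% and 2.78% in WT_CTR. The 19 pump genes alone took 0.746% to 0.789% in KO_4OI, 1.30% to 1.45% in KO_CTR and 1.24% to 1.35% in WT_CTR. Neither share overlapped between KO_4OI and either other group. By the quasi-likelihood test of edgeR, with p-values adjusted over all genes after Benjamini and Hochberg, 20 of the 31 tested genes fell in KO_4OI relative to KO_CTR and 2 rose, Atp6v0a1 and Rab3d. Of all 14264 genes 14.2% fell and 13% rose by the same rule. At 2-fold or more 11 of the 31 fell and 1 rose, where 6.95% of all genes fell and 6.04% rose. The median log2 fold change of the 31 was -0.75, against 0.02 over all genes. For 20 of the 31 every KO_4OI library lay below every KO_CTR library, and for 4 above, as for 19.6% and 19.8% of all genes. At an unadjusted p under 0.05 there were 26 of the 31, against 38.2% of all genes. Of the 22 calls 19 held in all 20 alternative settings, and Atp6v1c1, Atp6ap1 and Rab3d lost theirs in some.

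**Figure D1:**
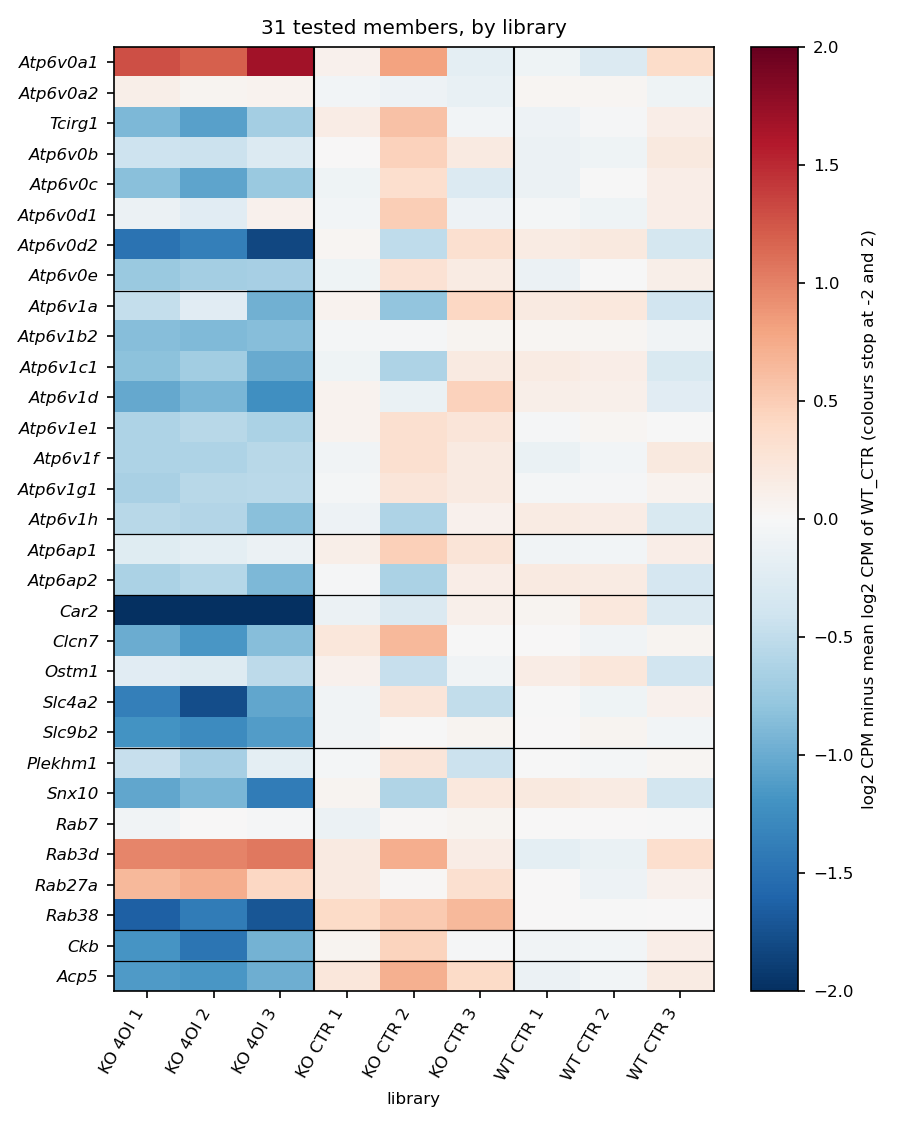
Heat map of the 31 tested genes (rows, by role) in the 9 libraries (columns). Colour is log2 CPM minus the mean log2 CPM of WT_CTR for that gene, with colours ending at -2 and 2. The 3 KO_4OI columns are low for most rows and high for Atp6v0a1, Rab3d and Rab27a.

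V0 is the membrane sector through which protons pass, and its subunit a, which lines the proton path, is made by alternative genes. Tcirg1 (chr19:3896050-3907133, minus strand) codes for a3, the form of the osteoclast ruffled border, and Atp6v0a1 (chr11:101009452-101063719, plus strand) for a1, best known from neurons. These genes moved in opposite directions. Tcirg1 had 758, 665 and 884 CPM in KO_4OI, against 1572, 2126 and 1357 CPM in KO_CTR and 1312, 1386 and 1550.4 CPM in WT_CTR. All KO_4OI libraries lay below all others, and the level was 2.19-fold lower in KO_4OI than in KO_CTR (log2 fold change -1.13 ± 0.17 SE, adjusted p = 2.74e-04). Atp6v0a1 had 89.5, 83.1 and 116 CPM in KO_4OI, against 38.7, 63.6 and 31.9 CPM in KO_CTR and 34.3, 30.2 and 47.0 CPM in WT_CTR. Here all KO_4OI libraries lay above all others, with a level 2.15-fold that of KO_CTR (log2 fold change 1.11 ± 0.25 SE, adjusted p = 0.00487). KO_CTR replicate 2 was the highest of the 6 control libraries for both genes. Atp6v0a2, which codes for the a2 form of the Golgi and endosomes, had 56.0, 53.8 and 54.1 CPM in KO_4OI, against 49.9, 48.1 and 46.8 CPM in KO_CTR and 53.1, 53.3 and 49.0 CPM in WT_CTR. Its KO_4OI libraries lay just above the other groups without passing the test (log2 fold change 0.18 ± 0.13 SE, adjusted p = 0.338).

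Per kb of exon, Tcirg1 remained the most abundant subunit a transcript in every library. It made up 88.2%, 87.5% and 88.2% of the summed CPM per kb of the 3 genes in KO_4OI, against 96.2%, 96.5% and 96.1% in KO_CTR and 95.6%, 96.0% and 95.9% in WT_CTR. Atp6v0a1 made up 7.32%, 7.67% and 8.15% in KO_4OI, against 1.66%, 2.03% and 1.59% in KO_CTR and 1.75%, 1.47% and 2.04% in WT_CTR. Neither share overlapped between KO_4OI and the controls. The ratio of Tcirg1 to Atp6v0a1 per kb was 12.1, 11.4 and 10.8 in KO_4OI, 57.9, 47.6 and 60.6 in KO_CTR and 54.5, 65.4 and 47.0 in WT_CTR. It was 4.82-fold lower in KO_4OI than in KO_CTR, a difference of -2.27 in mean log2 ratio. A two-sided exact permutation test gave p = 0.1, the smallest p that 3 against 3 libraries allow, and 0.2 after adjustment over 12 such ratio tests. A ratio within a library needs no scaling between libraries. All KO_4OI ratios of Tcirg1 to Atp6v0a1 lay below all those of KO_CTR and WT_CTR. With 3 libraries per group the permutation test cannot pass the threshold, so it does not decide whether the paralogs changed unequally.

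**Figure D2:**
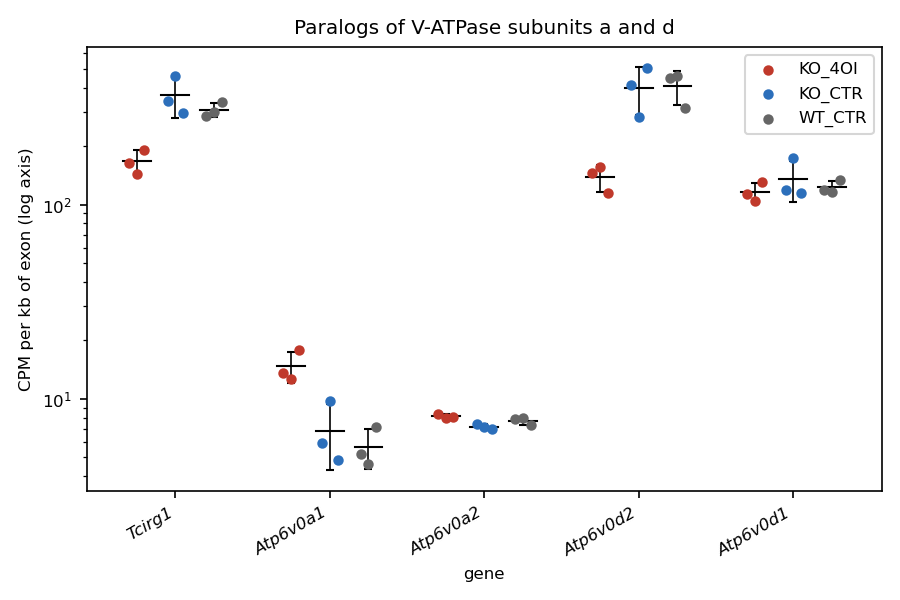
CPM per kb of exon (log axis) of the genes for subunits a (Tcirg1, Atp6v0a1, Atp6v0a2) and d (Atp6v0d2, Atp6v0d1), with 3 libraries per group as points and the mean ± SD as lines. Tcirg1 and Atp6v0d2 are lower and Atp6v0a1 is higher in KO_4OI than in KO_CTR and WT_CTR, while Atp6v0a2 and Atp6v0d1 stay close.

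Subunit d joins V0 to the rotor stalk of V1. Its osteoclast form d2 is coded by Atp6v0d2 (chr4:19876841-19922605, minus strand), a gene that is also needed for osteoclast fusion in mice, and its general form d1 by Atp6v0d1. Atp6v0d2 had 393, 424 and 310.3 CPM in KO_4OI, against 1120.3, 764 and 1365 CPM in KO_CTR and 1219.5, 1244 and 855 CPM in WT_CTR. The groups did not overlap, and KO_4OI was 2.88-fold below KO_CTR (log2 fold change -1.53 ± 0.21 SE, adjusted p = 1.59e-04). Atp6v0d1 had 204, 188 and 233 CPM in KO_4OI, against 212, 309.9 and 206 CPM in KO_CTR and 214, 208 and 241 CPM in WT_CTR, with overlapping groups (log2 fold change -0.22 ± 0.17 SE, adjusted p = 0.362). The d2 to d1 ratio per kb was 1.27, 1.49 and 0.879 in KO_4OI, 3.49, 1.63 and 4.37 in KO_CTR and 3.76, 3.95 and 2.34 in WT_CTR. KO_4OI replicate 3 was the only library in which d2 was the less abundant transcript of the pair. The ratio was 2.46-fold lower in KO_4OI than in KO_CTR (log2 difference -1.30, two-sided exact permutation p = 0.1, adjusted 0.2).

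The remaining V0 genes fell by smaller amounts. Atp6v0c, which codes for the proteolipid of the rotor ring, averaged 362 ± 40.1 CPM in KO_4OI, 669 ± 151 CPM in KO_CTR and 664 ± 57.5 CPM in WT_CTR (SD, n = 3 each), a log2 fold change of -0.89 between KO_4OI and KO_CTR (adjusted p = 0.0013). Atp6v0b, for the second ring proteolipid, fell by 0.60 on the log2 scale (adjusted p = 0.00727). Subunit e is a small membrane protein with a pair of genes, Atp6v0e and Atp6v0e2. Atp6v0e had 366, 382 and 389 CPM in KO_4OI, against 577, 749.7 and 689 CPM in KO_CTR and 566, 610.0 and 668 CPM in WT_CTR. Its KO_4OI libraries lay below all others (log2 fold change -0.83 ± 0.13 SE, adjusted p = 4.45e-04). Atp6v0e2 had 1, 7 and 12 reads in KO_4OI, 0, 6 and 5 in KO_CTR and 5, 8 and 0 in WT_CTR, too few to read a ratio to Atp6v0e. Of the 8 V0 genes tested, 5 fell, 1 rose and 2 did not pass, where 14.2% of all genes fell and 13% rose. The mouse annotation holds 2 named pseudogenes of Atp6v0c, so its reads are less certain than those of the other V0 genes.

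V1 is the cytosolic sector that hydrolyses ATP and turns the rotor, and 6 of its 8 genes fell, where 14.2% of all genes did. The largest decrease was that of Atp6v1d (chr12:78840725-78861638, minus strand), which codes for the central shaft. It had 230.2, 250.1 and 199.99 CPM in KO_4OI, against 494, 430.2 and 645 CPM in KO_CTR and 511, 504 and 404 CPM in WT_CTR. No library of KO_4OI reached the range of the others (log2 fold change -1.21 ± 0.17 SE, adjusted p = 1.59e-04). Atp6v1b2, for the nucleotide-binding subunit B2, averaged 1544 ± 15.2 CPM in KO_4OI, 2809 ± 110.4 CPM in KO_CTR and 2811 ± 118 CPM in WT_CTR (SD, n = 3 each). Its adjusted p for KO_4OI against KO_CTR was the smallest of the V1 genes (log2 fold change -0.86 ± 0.11 SE, adjusted p = 6.22e-05). The genes of the outer stalk and rotor, Atp6v1e1 (-0.82, adjusted p = 2.29e-04), Atp6v1g1 (-0.71, adjusted p = 8.50e-04) and Atp6v1f (-0.75, adjusted p = 0.0014), also fell, log2 fold changes being given first. Atp6v1c1, for the subunit that links the stalks to V0, fell (-0.70, adjusted p = 0.0172), but 5 of the 20 settings ended that call, with adjusted p up to 0.0775. These settings left out KO_CTR replicate 1 or 3, KO_4OI replicate 1 or 3, or the libraries with Xist reads.

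Atp6v1a, for the catalytic subunit A, had 865, 1021 and 618 CPM in KO_4OI, against 1258, 696 and 1598 CPM in KO_CTR and 1356, 1381 and 920.3 CPM in WT_CTR, and did not pass the test (log2 fold change -0.50 ± 0.27 SE, adjusted p = 0.184). Its lowest control values were in KO_CTR replicate 2 and WT_CTR replicate 3, which overlapped KO_4OI. Without KO_CTR replicate 2 the log2 fold change was -0.80 and passed (adjusted p = 0.00413). Atp6v1a passed in 3 of the 20 settings, with log2 fold changes of -0.80 to -0.23 and adjusted p up to 0.563 over all 20. Atp6v1h, for the regulatory subunit H, likewise did not pass (-0.47, adjusted p = 0.0828) and passed without KO_CTR replicate 2 (-0.68, adjusted p = 0.00298). Atp6v1h passed in 4 of the 20 settings, with -0.68 to -0.31 and adjusted p up to 0.254 over all 20. Of the accessory subunits, Atp6ap1, which codes for a glycoprotein that aids pump assembly in the endoplasmic reticulum, averaged 562 ± 23.3 CPM in KO_4OI, 778 ± 98.3 CPM in KO_CTR and 639 ± 52.1 CPM in WT_CTR (SD, n = 3 each) and fell (-0.47, adjusted p = 0.0159). That call was lost without KO_4OI replicate 1 and without the libraries with Xist reads. Atp6ap2, for the (pro)renin receptor, lay at the threshold (-0.56, adjusted p = 0.0509) and crossed it in 7 of the 20 settings. Exons of Atp6v1e1 and Atp6v1h overlap those of Slc25a18 and Rgs20 on the opposite strand, as exons of 10 of the 33 genes overlap some gene there. Since the strand setting of the counting is not given in the sources used here, such reads cannot be told apart.

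Pump and lysosome genes are known to carry the sequence CACGTG near their starts, the core site of the transcription factors Mitf, Tfeb, Tfe3 and Tfec. RefSeq promoter sequences of build GRCm38.p6 (250 bases before to 50 after a start) were at hand for 24 of the 33 genes. CACGTG, which reads alike on both strands, was in 6 of these 24 (25%), against 8.09% of 27025 mouse genes. The longer form TCACGTGA was in 4 (16.7%, against 1.13% of all genes) and GTCACGTG, on either strand, in 3 (12.5%, against 2.55%); both contain CACGTG and so overlap it. A further sequence, TGACNNNGC, on either strand, was in 4 (16.7%, against 13.99%). These were Atp6v0a1, at -220 and -211, Acp5, Rab7 and Atp6v1a. The 5 genes with CACGTG within 150 bases before to 20 after the start were Clcn7, Atp6v0b, Atp6v0d1, Atp6v0e and Atp6v1a. These stretches are shown because they let the position of the site be compared between genes that fell and genes that did not pass. Each is written 5′ to 3′ on the strand of the gene, with CACGTG in capitals and the last 20 bases lying after the start.
Clcn7, chr17:25133241-25133410, plus strand: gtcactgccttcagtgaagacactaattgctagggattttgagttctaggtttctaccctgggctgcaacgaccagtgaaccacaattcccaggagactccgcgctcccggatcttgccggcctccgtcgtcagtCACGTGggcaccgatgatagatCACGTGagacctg
Atp6v0b, chr4:117887310-117887479, minus strand: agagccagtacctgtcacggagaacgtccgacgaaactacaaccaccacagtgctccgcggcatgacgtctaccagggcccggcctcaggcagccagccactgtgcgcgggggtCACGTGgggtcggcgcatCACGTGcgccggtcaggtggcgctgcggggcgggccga
Atp6v0d1, chr8:105566045-105566214, minus strand: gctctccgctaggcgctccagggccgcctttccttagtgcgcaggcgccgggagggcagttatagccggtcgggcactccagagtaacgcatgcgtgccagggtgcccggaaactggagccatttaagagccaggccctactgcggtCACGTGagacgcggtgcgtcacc
Atp6v0e, chr17:26676246-26676415, plus strand: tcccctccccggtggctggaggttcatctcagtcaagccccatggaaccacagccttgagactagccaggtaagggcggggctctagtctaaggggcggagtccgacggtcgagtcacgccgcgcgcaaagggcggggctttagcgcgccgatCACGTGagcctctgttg
Atp6v1a, chr16:44139240-44139409, minus strand: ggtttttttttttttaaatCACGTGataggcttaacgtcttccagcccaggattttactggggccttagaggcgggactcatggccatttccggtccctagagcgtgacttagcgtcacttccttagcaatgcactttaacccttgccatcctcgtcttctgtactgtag

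In Clcn7 the site occurs at -15 and again at 8, counted from the first base of the transcript as 1. In Atp6v0b it occurs at -36 and -18, in Atp6v0d1 at -3, in Atp6v0e at 4 and in Atp6v1a at -131. The sixth gene, Rab27a, has it at -246. Of these 6 genes Clcn7 (-1.31, adjusted p = 7.12e-05), Atp6v0b (-0.60, adjusted p = 0.00727) and Atp6v0e (-0.83, adjusted p = 4.45e-04) fell in KO_4OI relative to KO_CTR, while Atp6v0d1 (-0.22, adjusted p = 0.362), Atp6v1a (-0.50, adjusted p = 0.184) and Rab27a (0.42, adjusted p = 0.066) did not pass, log2 fold changes being given first. A match of letters does not show that a factor binds there. The 9 genes without an entry in the promoter table were Atp6v0a2, Atp6v0d2, Atp6v1b2, Atp6v1c1, Atp6v1g1, Atp6v1h, Car2, Rab38 and Syt7.

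The largest change among the 33 genes was in the RNA of a gene for the supply of protons. Car2 (chr3:14886273-14900770, plus strand), which codes for carbonic anhydrase II, had 12.1, 11.2 and 10.1 CPM in KO_4OI, against 139, 124 and 162 CPM in KO_CTR and 157, 175 and 125 CPM in WT_CTR. The KO_4OI libraries lay close together and far below every control library, at a level 12.7-fold lower than in KO_CTR (log2 fold change -3.67 ± 0.18 SE, adjusted p = 1.65e-08). Car2 is also abundant in red blood cells. Of the 8 erythroid markers, Car1 had 0 reads in all 9 libraries, and the summed level of the list was 14.6 to 17.1 CPM in KO_4OI, 9.65 to 21.9 CPM in KO_CTR and 7.74 to 13.3 CPM in WT_CTR. Those sums overlapped between KO_4OI and KO_CTR, and at an unadjusted p under 0.05 there were 0 of the 5 erythroid markers tested. These levels are low, and the part of erythroid cells in the change of Car2 was not tested.

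The genes of the exchangers that keep charge and pH in balance fell too. Clcn7 (chr17:25133391-25162104, plus strand) had 214, 192 and 238 CPM in KO_4OI, against 501, 669 and 425 CPM in KO_CTR and 429, 409 and 446 CPM in WT_CTR. The groups did not overlap (log2 fold change -1.31 ± 0.17 SE, adjusted p = 7.12e-05), and KO_CTR replicate 2 was the highest library. Slc4a2 (chr5:24423837-24440950, plus strand), for the chloride/bicarbonate exchanger AE2, had 148, 111 and 185 CPM in KO_4OI, against 361, 451 and 270.3 CPM in KO_CTR and 376, 359 and 405 CPM in WT_CTR. Again every KO_4OI library was below every control (log2 fold change -1.29 ± 0.21 SE, adjusted p = 4.37e-04), although reads of Fastk, which overlaps it on the opposite strand, may be included. Slc9b2 (chr3:135307700-135345387, plus strand) codes for the sodium/proton exchanger NHA2, which is abundant in osteoclasts. It had 284, 273 and 301 CPM in KO_4OI, against 621, 648 and 679 CPM in KO_CTR and 652, 676 and 627 CPM in WT_CTR. Its libraries agreed closely within each group, and KO_4OI was 2.27-fold below KO_CTR (log2 fold change -1.18 ± 0.12 SE, adjusted p = 8.07e-06). Ostm1, whose product is the partner that stabilises ClC-7, averaged 97.5 ± 10.5 CPM in KO_4OI, 112 ± 21.0 CPM in KO_CTR and 125 ± 27.1 CPM in WT_CTR (SD, n = 3 each). It did not pass the test (log2 fold change -0.21 ± 0.19 SE, adjusted p = 0.454), unlike Clcn7. The difference between the changes of Clcn7 and Ostm1 was not tested.

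**Figure D3:**
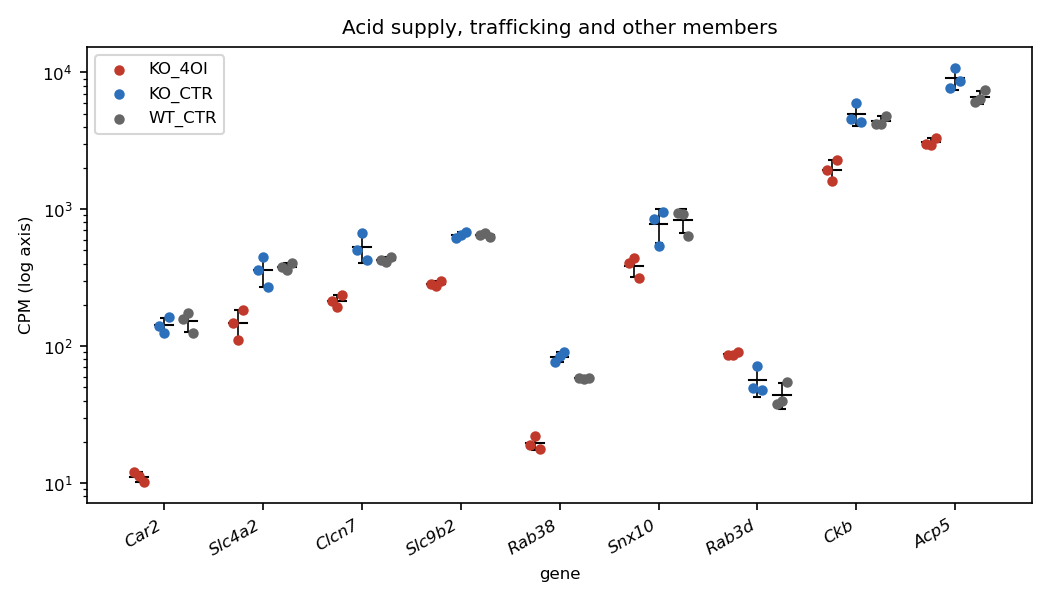
CPM (log axis) of 9 genes of acid supply, trafficking, energy supply and phosphatase activity, with 3 libraries per group as points and the mean ± SD as lines. KO_4OI is lower than KO_CTR and WT_CTR for 8 genes, furthest for Car2, and higher for Rab3d.

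Among the trafficking genes the small GTPases of lysosome-related vesicles differed from one another. Rab38 (chr7:88430273-88491572, plus strand), known for the transport of enzymes to melanosomes, had 18.8, 22.03 and 17.8 CPM in KO_4OI, against 76.0, 84.1 and 90.9 CPM in KO_CTR and 58.3, 57.9 and 58.4 CPM in WT_CTR. KO_4OI was 4.28-fold below KO_CTR with no overlap (log2 fold change -2.10 ± 0.15 SE, adjusted p = 4.72e-07), the second largest decrease of the 31 genes. Snx10 (chr6:51523901-51590679, plus strand), for a sorting nexin of endosomes, had 403, 438 and 313 CPM in KO_4OI, against 854, 542 and 959 CPM in KO_CTR and 944, 928 and 643 CPM in WT_CTR. All KO_4OI values were below all controls (log2 fold change -1.03 ± 0.22 SE, adjusted p = 0.00307), but KO_CTR replicate 2 lay nearer to KO_4OI than the other KO_CTR libraries did. Rab3d, which controls secretory vesicles and is needed for normal ruffled borders in mice, had 85.5, 86.4 and 90.0 CPM in KO_4OI, against 49.1, 72.2 and 48.0 CPM in KO_CTR and 37.9, 39.5 and 54.8 CPM in WT_CTR. Its KO_4OI libraries were above all control libraries (log2 fold change 0.63 ± 0.19 SE, adjusted p = 0.0251). The call was lost in 6 of the 20 settings, with adjusted p up to 0.103: without KO_CTR replicate 1 or 3, without any single KO_4OI library, or without the libraries with Xist reads. Rab27a, for a GTPase of vesicle docking, was higher in every KO_4OI library than in KO_CTR without passing (log2 fold change 0.42 ± 0.16 SE, adjusted p = 0.066). It passed in 3 of the 20 settings, which were DESeq2, without KO_4OI replicate 3, and without the library of each group lowest on the second principal component. Rab7, which drives late endosomes and lysosomes, averaged 573 ± 14.7 CPM in KO_4OI, 582 ± 37.4 CPM in KO_CTR and 584 ± 2.82 CPM in WT_CTR (SD, n = 3 each; log2 fold change -0.02 ± 0.11 SE, adjusted p = 0.907). Plekhm1, an effector of Rab7, did not pass either (-0.38, adjusted p = 0.126). Of the 6 trafficking genes tested 2 fell and 1 rose, where 14.2% and 13% of all genes did.

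Ckb (chr12:111669361-111672338, minus strand) codes for the brain form of creatine kinase, which regenerates ATP and is abundant in osteoclasts. It had 1942, 1599 and 2289 CPM in KO_4OI, against 4563, 5958 and 4324 CPM in KO_CTR and 4176, 4211 and 4814 CPM in WT_CTR. The level was 2.55-fold lower in KO_4OI than in KO_CTR with no overlap (log2 fold change -1.35 ± 0.16 SE, adjusted p = 4.12e-05), with 2 named pseudogenes in the annotation. Acp5 (chr9:22126727-22135711, minus strand), for the tartrate-resistant acid phosphatase by which osteoclasts are stained, had 3007, 2946 and 3337 CPM in KO_4OI, against 7680.1, 10802 and 8595 CPM in KO_CTR and 6053, 6365 and 7396 CPM in WT_CTR. It was 2.91-fold lower in KO_4OI than in KO_CTR (log2 fold change -1.54 ± 0.14 SE, adjusted p = 5.12e-06). Per kb of exon Acp5 had the highest level of the 33 genes in KO_CTR, at 4446 ± 791 CPM per kb, and Ckb the second highest, at 1709 ± 305 CPM per kb (SD, n = 3 each). In KO_4OI they stood at 1525 ± 104 and 671 ± 119 CPM per kb.

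**Figure D4:**
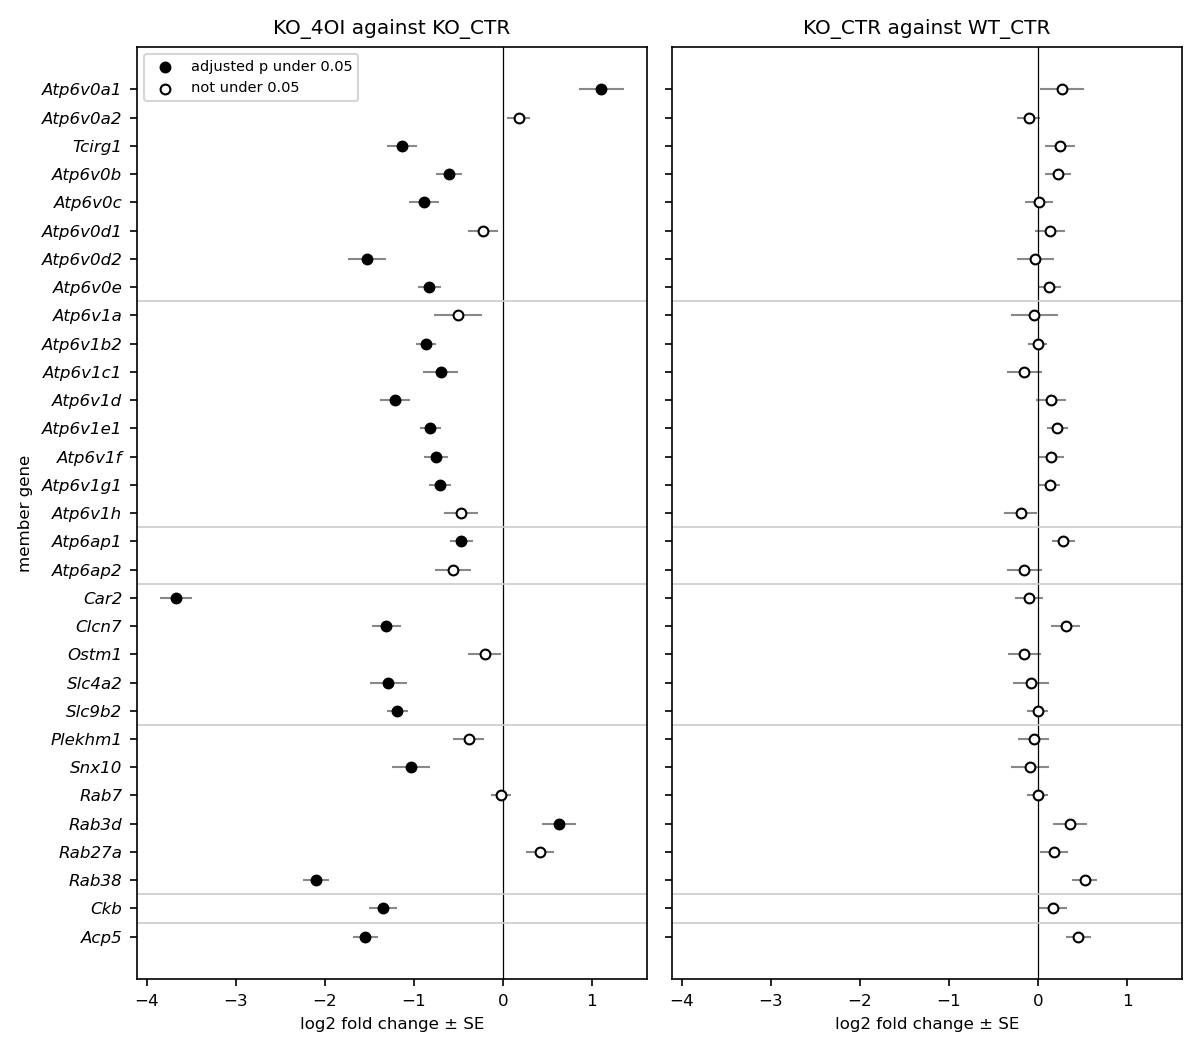
Log2 fold change ± SE of the 31 tested genes by role, for KO_4OI against KO_CTR (left) and KO_CTR against WT_CTR (right). Filled points have an adjusted p under 0.05. On the left 20 filled points lie below 0 and 2 above, and on the right no point is filled.

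Between the groups labelled KO_CTR and WT_CTR, which ask what loss of Acod1 does without the compound, none of the 31 genes passed edgeR's test, and the libraries labelled KO_CTR had higher Acod1 CPM than WT_CTR. Of all genes 0.47% rose and 0.0491% fell. At an unadjusted p under 0.05 there were 3 of the 31, Acp5, Rab38 and Atp6ap1, against 17.8% of all genes. The log2 fold changes ran from -0.20 to 0.52 with a median of 0.13, against -0.03 over all genes. For 3 genes all libraries labelled KO_CTR lay above all WT_CTR libraries, and for none below, where 10.2% and 9.56% of all genes did. Rab38 was one (log2 fold change 0.52 ± 0.14 SE, adjusted p = 0.103). Acp5 was another (log2 fold change 0.45 ± 0.14 SE, adjusted p = 0.137), and Atp6v1e1 the last (log2 fold change 0.21 ± 0.12 SE, adjusted p = 0.364). DESeq2 called 1 of the 31 higher, Rab38, where it called 3.32% of all genes higher. Without a low-count filter edgeR called 1 of 33 higher, Acp5, where 2.25% of all genes were. Without the library of each group that was lowest on the second principal component (KO_4OI replicate 3, KO_CTR replicate 2 and WT_CTR replicate 3), a setting chosen after seeing the data, 3 of the 31 rose, Rab3d, Rab38 and Acp5, where 6.45% of all genes did. Macrophage and monocyte markers were at 2512 to 3398 CPM in KO_CTR and 1862 to 2216 CPM in WT_CTR. Dendritic cell markers were at 843 to 1469 CPM in KO_CTR and 413 to 744 CPM in WT_CTR. Sums of osteoclast, B cell, stromal, and mast cell and basophil markers were also higher in KO_CTR without overlap. Those of neutrophil and erythroid markers overlapped. The part of these marker differences was not tested.

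KO_4OI was also set against WT_CTR, a comparison that joins the compound with the genotype label and shares the KO_4OI libraries with the one above. Of the 31 genes 20 fell and 3 rose, where 12.2% and 12.1% of all genes did, with a median log2 fold change of -0.70 against -0.03 over all genes. For 23 all KO_4OI libraries lay below all WT_CTR libraries and for 4 above, as for 22.1% and 19.8% of all genes. Car2 had a log2 fold change of -3.77 against WT_CTR and -3.67 against KO_CTR. Rab38 stood at -1.57 against WT_CTR and -2.10 against KO_CTR, and Acp5 at -1.09 and -1.54 in the same order. Tcirg1 was at -0.88 against WT_CTR and -1.13 against KO_CTR, and Atp6v0d2 at -1.56 and -1.53. The genes that rose were Atp6v0a1 (1.37, adjusted p = 0.00126), Rab3d (0.99, adjusted p = 0.00189) and Rab27a (0.60, adjusted p = 0.0137). Rab27a lost that call in 5 of the 20 settings. Atp6v1h (-0.67, adjusted p = 0.0195) and Atp6ap2 (-0.72, adjusted p = 0.0174) fell relative to WT_CTR and lost the call in 4 settings each, while Atp6v0b (-0.38, adjusted p = 0.0758) and Atp6ap1 (-0.19, adjusted p = 0.351) did not pass against WT_CTR.

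Related genes outside the 33 were counted in the same comparison of KO_4OI with KO_CTR, in which 13% of all genes rose and 14.2% fell. Of 6 further V-ATPase subunit genes, tissue-specific forms for the most part, 1 reached the level for a test, Atp6v1g2 (-0.60, adjusted p = 0.0475), and it lost its call in 15 of 19 settings. Of 11 assembly and regulation genes tested, 2 rose and 1 fell. Dmxl2 (1.37, adjusted p = 0.00119), for a rabconnectin that binds the pump, and Ncoa7 (1.04, adjusted p = 0.00171), for a protein that binds V1, rose. Rogdi (-0.59, adjusted p = 0.0374) fell with the call lost in 8 of 20 settings, and Dmxl1 (-0.66, adjusted p = 0.0598) did not pass. Of 18 other ion transport and pH genes tested, 1 rose and 3 fell. Car5b (1.11, adjusted p = 2.49e-04), for a mitochondrial carbonic anhydrase, rose. Slc4a3 (-1.40, adjusted p = 2.60e-04) and Slc4a8 (-1.09, adjusted p = 0.00587), relatives of Slc4a2, fell. Car13 (-0.53, adjusted p = 0.0377), for a cytosolic carbonic anhydrase, fell with the call lost in 11 of 20 settings. Log2 fold changes are given first in each bracket.

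Of 19 other lysosome and ruffled border trafficking genes tested from a list of 25, 4 rose and 3 fell, beside the same 13% and 14.2% of all genes. Rab7b (1.60, adjusted p = 5.54e-06), Rab32 (0.68, adjusted p = 0.00265), a close relative of Rab38, and Plekhm3 (0.73, adjusted p = 0.0112), a relative of Plekhm1, rose, and Vps39 (-0.73, adjusted p = 0.00844), for a subunit of the HOPS tethering complex, fell. Plekhm3 lost its call without KO_4OI replicate 2 (adjusted p up to 0.0548), and Vps39 without the libraries with Xist reads (up to 0.0538). Rab32 had 197, 194 and 194 CPM in KO_4OI, against 109, 144 and 112 CPM in KO_CTR and 90.3, 86.1 and 95.1 CPM in WT_CTR. Rab38 and Rab32 thus changed in opposite directions, and Rab7b rose where Rab7 did not pass. Of the 5 transcription factors known for V-ATPase and lysosomal genes, Nfatc1 (-1.51, adjusted p = 1.50e-04), the main factor of osteoclast differentiation and one of the 11 osteoclast markers, fell. Tfe3 (0.18, adjusted p = 0.561), Tfeb (-0.11, adjusted p = 0.737), Tfec (0.07, adjusted p = 0.799) and Mitf (-0.04, adjusted p = 0.922), of the family that reads CACGTG, did not pass.

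Within groups the genes also varied together. The library lowest on the second principal component of each group, KO_4OI replicate 3, KO_CTR replicate 2 and WT_CTR replicate 3, departed from the other 2 of its group in the same direction in all 3 groups for 25 of the 31 genes. It was above them for 15 genes and below for 10. Over all 14264 genes 64.1% had the same sign in the 3 groups, in libraries chosen by a component that all these genes helped to set. On the log2 scale Atp6v0a1 departed by 0.43 in KO_4OI, 0.86 in KO_CTR and 0.55 in WT_CTR, and Tcirg1 by 0.32 in KO_4OI, 0.54 in KO_CTR and 0.20 in WT_CTR. In the other direction Atp6v1a departed by -0.61 in KO_4OI, -1.03 in KO_CTR and -0.57 in WT_CTR, and Snx10 by -0.42 in KO_4OI, -0.74 in KO_CTR and -0.54 in WT_CTR. Across the 31 genes the departures had a Pearson correlation of 0.93 between KO_CTR and KO_4OI, 0.81 between KO_4OI and WT_CTR and 0.93 between KO_CTR and WT_CTR. Across all genes these values were 0.45, 0.25 and 0.57. Genes are not independent replicates, and the labels name no batch.

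**Figure D5:**
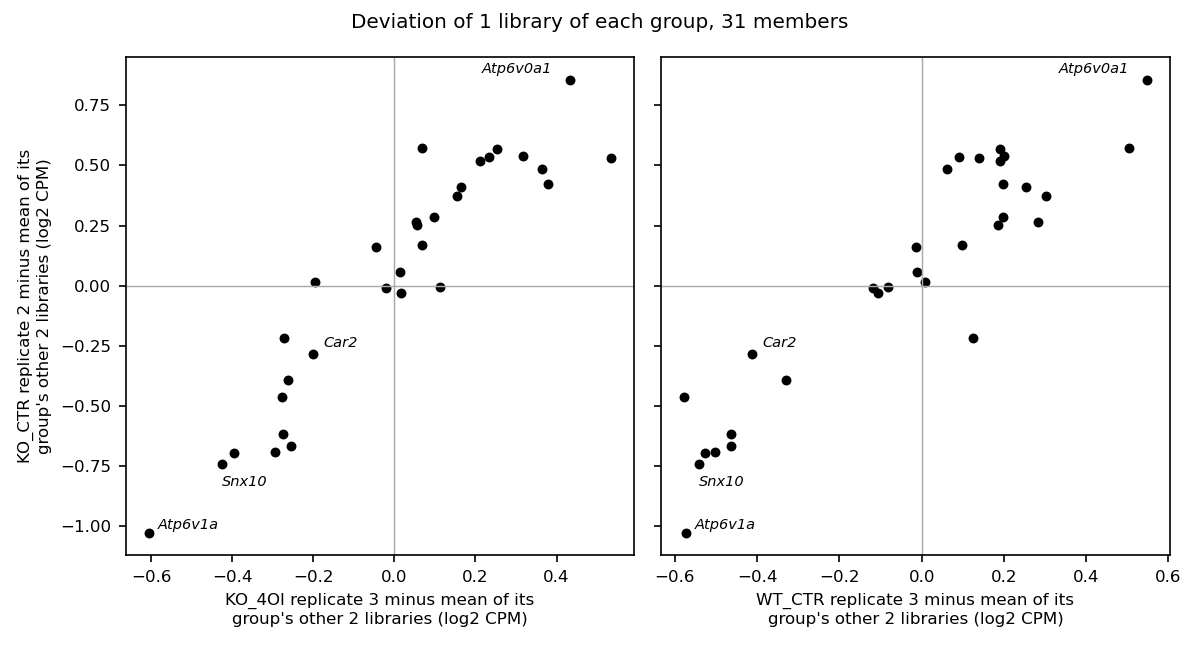
Departure in log2 CPM of 1 library per group from the mean of the other 2 libraries of its group, for 31 genes (points). KO_CTR replicate 2 (vertical) is plotted against KO_4OI replicate 3 (left) and WT_CTR replicate 3 (right). Points run from Atp6v1a, at -1.03 on the vertical axis, to Atp6v0a1, at 0.86.

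Without these 3 libraries, 3 of the 31 genes rose in KO_4OI relative to KO_CTR and 24 fell, against 2 and 20 with all libraries. Calls over all genes grew too, to 17.4% higher and 18.1% lower, against 13% and 14.2% with all libraries. Atp6v1a, Atp6v1h, Atp6ap2 and Plekhm1 were the 4 that then passed as lower, and Rab27a the 1 that then passed as higher. The split of the libraries is a description of these data, chosen after they were seen.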

How the data were processed

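RNA was measured in 9 libraries of 3 groups, 3 libraries each, made from 1 µg of total RNA with a NEBNext Ultra kit, per the labels' protocols. The authors deposited raw read counts per Ensembl gene, used here as deposited, whole numbers with 1 column per library. The submitters' processing notes name HTSeq 0.6.1, STAR and fastp, and the mouse build mm10. Neither the annotation release nor the strand setting is given in the sources used here. Overlapping genes on opposite strands may therefore share reads, and reads shared with pseudogenes may be lost or split. Of 54532 gene IDs 54409 had a symbol. Exon lengths and coordinates come from GENCODE vM21, whose genome build matches mm10, and a length is the union of a gene's exons.

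The low-count filter was filterByExpr of edgeR with a minimum count of 10, and 14264 genes passed it. One model in edgeR 4.0.16 (R 4.3.3, TMM scaling, glmQLFit and glmQLFTest) covered all 9 libraries, with group as the only factor, since all are osteoclast cultures grown with the same cytokines. The compound was given in KO_4OI alone, and cell type marker levels differed between the groups. The common biological coefficient of variation was 0.179. Tests were two-sided, the Benjamini-Hochberg adjustment covered all genes tested, and the threshold was 0.05. CPM use TMM-scaled library sizes, errors are SD over 3 libraries, and SE is the absolute log2 fold change over the square root of the F statistic. Ratios of paralogs used counts plus 0.5 per kb and an exact permutation test over libraries. The fit was tested on simulated data with known changes. No pair of libraries within a group was alike within sampling noise (chi-square per gene 8.26 to 94.1). Same-numbered libraries of different groups did not deviate together in every pair (correlations -0.408 to 0.317), so the replicate numbers were not used as pairs. Totals of 24830149 to 35143629 reads per library set the precision, and counting error is smallest for the most abundant genes.

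The members and lists were chosen with earlier results of these data known. Values in every library are given for genes past the threshold with an absolute log2 fold change of at least 1 between KO_4OI and KO_CTR or past it between KO_CTR and WT_CTR, and for paralogs. Outside that rule they are also given for Acod1, Atp6v1a, Rab3d and Rab32. Of each further list up to 4 genes with the smallest p are named, and Mitf besides. B cell, neutrophil, stromal and mast cell marker lists were also counted. Alternatives tried were other scalings, other low-count filters, DESeq2 1.42.0, limma 3.58.1, the replicate number as a block, sex as a covariate, fewer groups and each library left out.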

Additional observations from a re-analysis of the deposited data

How the results depend on the processing

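Directions and sides of the threshold were compared in 20 alternative settings per gene, 1 of them chosen after seeing the data (without the library of each group lowest on the second principal component). Between KO_4OI and KO_CTR 19 of the 22 called genes kept their call in all 20. The number that rose, 2, was 3 with DESeq2, which added Rab27a, 3 in the added setting, 1 without the libraries with Xist reads and 1 to 2 when single libraries were left out. Between KO_CTR and WT_CTR the calls over all genes depended on the setting. Against 67 higher and 7 lower genes there were 137 higher with upper-quartile factors, 582 higher and 297 lower with no low-count filter, 28 and 1 at a mean of at least 5 CPM, 473 and 156 with DESeq2, 4 and 0 with sex as a covariate, 5 and 0 without the libraries with Xist reads, 926 and 488 in the added setting, and 0 to 225 higher and 0 to 31 lower with single libraries left out. Of the acid secretion genes none rose, against 1 with no filter, 1 with DESeq2 and 3 in the added setting. With the replicate block, which the correlations of same-numbered libraries do not bear out as pairs, 6 genes rose and 0 fell between KO_CTR and WT_CTR, none of them among the 31, and no call of an acid secretion gene changed in any comparison. Between KO_4OI and WT_CTR 2676 genes rose in the added setting, and 1154 to 2128 fell with single libraries left out. Values near 0 changed sign. Rab7 against WT_CTR was 0.00194 with RLE factors, 0.00193 with DESeq2, 0.0241 in the added setting and -0.0419 to 0.00784 with single libraries left out, and against KO_CTR -0.0751 to 0.0127. With single libraries left out, Atp6v0d1 in KO_4OI against WT_CTR ran from -0.174 to 0.0197, Atp6v1h in KO_CTR against WT_CTR from -0.355 to 0.0455, and in KO_4OI against KO_CTR Tfe3 from -0.0026 to 0.40, Tfeb from -0.25 to 0.13 (0.0260 in the added setting) and Tfec from -0.0510 to 0.227. The log2 ratios between KO_CTR and WT_CTR ran from -0.45 to 0.26 for Atp6v0d2 to Atp6v0d1, -0.12 to 0.12 for Tcirg1 to Atp6v0a1 and -1.52 to 1.07 for Atp6v0e2 to Atp6v0e. The causes were not tested. Groups of 3 libraries cannot give an exact permutation p under 0.1, and Atp6v0e2 and Syt7 are too shallow to read.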

Other observations

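Other marker lists held few calls between KO_4OI and KO_CTR in edgeR's test. Of all genes 13% rose and 14.2% fell there, and 38.2% had an unadjusted p under 0.05. None of the 5 B cell markers tested passed, and 0 had an unadjusted p under 0.05, with summed levels of 28.6 to 30.02 CPM in KO_4OI and 31.8 to 48.0 CPM in KO_CTR. Of 7 neutrophil markers 1 rose, with sums of 931 to 1165 CPM in KO_4OI and 733 to 1168 CPM in KO_CTR. Of the 3 stromal and osteoblast markers tested none passed, although 3 had an unadjusted p under 0.05 (sums of 13.7 to 18.5 CPM in KO_4OI and 12.8 to 14.02 CPM in KO_CTR). Their log2 fold changes differed in direction, at -2.11 for Col1a1, -1.73 for Col1a2 and 0.46 for Runx2. Runx2 held most of the sums, with means of 14.6 CPM in KO_4OI and 10.6 CPM in KO_CTR. Col1a1 averaged 0.27 CPM in KO_4OI and 1.17 CPM in KO_CTR, and Col1a2 0.39 and 1.31 CPM. Of the 3 mast cell and basophil markers tested none passed, and 0 had an unadjusted p under 0.05 (6.42 to 8.29 CPM in KO_4OI and 7.30 to 12.7 CPM in KO_CTR).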
